A study of Mus musculus with 8 samples.

Results

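Mitf and 9 pigmentation genes were followed through single cells of 8 B16F10 melanomas. The genes were chosen by symbol in the gene tables: Mitf, Tyr, Tyrp1, Dct, Pmel, Mlana, Slc45a2, Slc24a5, Oca2 and Trpm1. All 10 were found among 31053 listed genes, of which 21874 had at least 1 UMI (unique molecular identifier, the count of 1 captured RNA molecule). B16F10 is a pigmented melanoma line of C57BL/6 mice. Cells were injected under the skin of the flank of C57BL/6 mice, and tumours were collected at 300 mm3 from mice that were 12 weeks old by the labels. In 4 hosts both copies of Atf4, a transcription factor of the integrated stress response, were intact (Atf4wt/wt), and in 4 hosts Atf4 had been deleted (Atf4D/D). All 8 hosts carried Rosa26::CreERT2, which is expressed in most tissues, and all were given tamoxifen, and the deleted stretch lies between loxP sites in the Atf4 gene. The injected melanoma cells kept their own Atf4 in every host. The Atf4wt/wt hosts were 2 males and 2 females and the Atf4D/D hosts 3 males and 1 female.

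MITF is the transcription factor on which the melanocyte lineage depends, and it binds short E-box sequences in front of many pigment genes. Tyrosinase (Tyr) carries out the first step of melanin synthesis, and Dct and Tyrp1 encode enzymes of the later steps toward eumelanin. Pmel forms the fibrils on which melanin is laid down in the melanosome, Mlana is a melanosomal membrane protein, Slc45a2, Slc24a5 and Oca2 encode melanosomal or endosomal ion and solute transporters, and Trpm1 encodes a cation channel. In human melanoma, cells with high and with low MITF coexist, and low MITF has been linked to invasive, stress-exposed states.

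The genes lie on 8 chromosomes of GRCm38. Mitf occupies chr6:97807052-98021349 on the plus strand, Tyr chr7:87424771-87493512 on the minus strand, Tyrp1 chr4:80834123-80851719 on the plus strand and Dct chr14:118012790-118052244 on the minus strand. Pmel (chr10:128704195-128720238), Mlana (chr19:29697824-29708634), Slc45a2 (chr15:11000721-11029233), Slc24a5 (chr2:125068124-125088677), Oca2 (chr7:56239760-56536518) and Trpm1 (chr7:64153835-64269775) lie on the plus strand. In the annotation no listed gene overlaps a member on the same strand. Cdk2 and Dgka overlap Pmel on the other strand, as Myef2 does Slc24a5, 4930435M08Rik Dct and Gm44506 Oca2.

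Sequence in front of the start site is shown where the stretch before the first annotated exon held an E-box, so the choice followed the motif. The stretches of Tyrp1 and of the second Trpm1 window held 0 and are not printed. RefSeq windows (GRCm38.p6) reached from 250 bases before to 50 bases after a start and were given for 7 of the 10 members, 10 windows in all. Each window was searched on both strands for the E-box CATGTG, which reads as CACATG on the opposite strand, and for the E-box CACGTG, which is its own complement. The forms CACATG and CATGTG can share bases, and a window was counted once however many it held. One or both stood in 7 of the 10 windows, belonging to 6 of the 7 members, against 20.4% of 32851 windows of all genes. Separately, 14.2% of all windows held CATGTG and 7.15% held CACGTG. The 3 windows of Mitf itself held neither. Each line shows the bases, 5′ to 3′, that end before the first annotated exon and start within the window, with the E-boxes in capitals.
Tyr (chr7:87493513-87493712, minus strand): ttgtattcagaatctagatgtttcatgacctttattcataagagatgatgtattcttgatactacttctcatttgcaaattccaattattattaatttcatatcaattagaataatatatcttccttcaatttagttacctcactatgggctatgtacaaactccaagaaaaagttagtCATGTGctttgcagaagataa
Dct (chr14:118052247-118052446, minus strand): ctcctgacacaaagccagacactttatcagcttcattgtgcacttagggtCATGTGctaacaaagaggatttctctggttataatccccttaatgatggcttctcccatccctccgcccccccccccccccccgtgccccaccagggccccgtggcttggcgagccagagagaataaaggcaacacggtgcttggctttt
Trpm1 (chr7:64153635-64153834, plus strand): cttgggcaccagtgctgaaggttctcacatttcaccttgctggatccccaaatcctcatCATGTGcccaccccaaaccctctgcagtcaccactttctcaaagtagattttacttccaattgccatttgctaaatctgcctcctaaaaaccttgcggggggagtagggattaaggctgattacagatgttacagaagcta
Slc24a5 (chr2:125067927-125068123, plus strand): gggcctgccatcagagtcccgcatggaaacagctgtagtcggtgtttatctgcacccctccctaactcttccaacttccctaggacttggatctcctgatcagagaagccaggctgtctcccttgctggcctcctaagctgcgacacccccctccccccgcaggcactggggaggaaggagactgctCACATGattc
Oca2 (chr7:56239559-56239758, plus strand): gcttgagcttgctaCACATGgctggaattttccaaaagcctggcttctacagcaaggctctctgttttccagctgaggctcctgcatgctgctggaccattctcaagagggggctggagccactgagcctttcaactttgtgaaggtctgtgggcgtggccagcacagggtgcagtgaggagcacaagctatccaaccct
Counted from the start site, the E-box began 21 bases upstream in Tyr, 150 in Dct, 141 in Trpm1, 13 in Slc24a5 and 186 in Oca2. Dct held another, CACATG, 232 bases upstream and outside the printed stretch, and Tyrp1 held CATGTG 46 bases upstream of its RefSeq start. The second Trpm1 window held CACGTG 229 bases upstream and CACATG 37 bases downstream of its start. A match is a description of the letters in the window. Nothing on binding was measured.

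The deposited tables held 41925 barcodes, between 37283598 and 74942137 UMIs per tumour. After the filters of the study, 28411 cells remained and were clustered without the 10 genes. Of these, 23698 cells in 10 clusters were melanoma-like by other lineage genes (Sox10, Gpr143 and others), 765 were CAF-like (cancer-associated fibroblasts, led by collagens) and 758 were immune (led by Lyz2, C1qb and C1qa). In the CAF-like cells each of 10 CAF markers had UMIs, and their summed level was 17693 to 44803 counts per 1000000 UMIs (CPM) per tumour against 5.04 to 49.5 in melanoma-like cells. Endothelial markers summed to 95.6 to 2814 CPM there. Left out was a cluster of 242 cells whose median mitochondrial share was 7.03%, of which 231 came from Atf4wt/wt replicate 4. The other 2948 cells, in 3 clusters, stayed unnamed. Among 41725 barcode sequences, 199 occurred in at least 2 libraries, and 82 of these did so among the named cells. In CAF-like cells Atf4 was 276, 327, 363 and 310.4 CPM in the 4 Atf4wt/wt hosts and 166, 115, 137 and 98.8 CPM in the Atf4D/D hosts, without overlap (log2 difference -1.33 ± 0.20 SE, edgeR adjusted p = 0.0529). The value of Atf4D/D replicate 3 rests on 7 UMIs in 16 cells. In melanoma-like cells Atf4 was 261 to 416 CPM in Atf4wt/wt and 317 to 425 CPM in Atf4D/D hosts.

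The melanoma-like cells expressed every member. Together the 10 genes made up 1.51% of their UMIs. Dct contributed 37.4% of the members' UMIs, Pmel 20.2%, Tyrp1 16.9% and Mlana 12.3%, while Mitf contributed 2.24%, Trpm1 1.65% and Oca2 0.247%. These shares compare captured 3′ ends and are not corrected for differences in capture between genes. Averaged over 8 tumours, at least 1 UMI was found in 99.9% of melanoma-like cells for Dct, 98.8% for Pmel, 84.8% for Tyr, 83.8% for Mitf, 70.3% for Trpm1 and 28.6% for Oca2. The 3′ reads do not tell the promoter forms of Mitf apart.

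The level of each member differed between the 10 melanoma-like clusters, which were built without these genes. The values that follow describe clusters made from the same cells and are given without a test. Mitf was highest in the cluster led by Cck and Kcnj13, at 377 to 491 CPM over 8 tumours (median 427), and lowest in the cluster led by Fgf21, Nupr1 and Hspa5, genes of the stress response to amino acid shortage and unfolded protein, at 171 to 305 CPM (median 187). The 2 ranges did not overlap, and the means (427 ± 38.0 and 208 ± 49.98 CPM, SD, n = 8) stood 2.05-fold apart. The mitotic clusters led by Cenpa and Ccnb2 (414 ± 54.2 CPM) and by Cenpf and Ube2c (407 ± 46.0 CPM) followed the highest cluster within its spread. Of the 9 neighbouring pairs in this order of Mitf, 1 pair differed by more than the larger SD: the cluster led by Espn, Anln and Bub1 at 304 ± 60.7 CPM and the cluster led by Hist1h2ae and Pclaf at 217 ± 50.6 CPM.

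The pigment genes kept another order. Among the 10 melanoma-like clusters, Trpm1, Slc24a5, Oca2, Slc45a2, Tyrp1 and Dct were highest in the cluster led by Cth, Azgp1 and Atf5. Tyr, Pmel and Mlana were highest in the cluster led by Cck and Kcnj13. For 8 of the 9, those were the top 2 clusters. For Tyrp1 rank 2 went to the cluster holding Car9 and Bnip3, genes induced by hypoxia (2817 ± 366 CPM). The highest cluster stood above the next by more than the larger SD for Slc24a5 and Slc45a2. For the other members the order of the first 2 was within the spread, as for Mlana (2314 ± 228 and 2225 ± 152 CPM). The Cth cluster held 1302 cells, and its median mitochondrial share was 1.44%, against 4.88% to 5.92% in the other 9. In that cluster Mitf stood at rank 7 of 10, at 308 ± 66.9 CPM. Nupr1, Akr1b7 and Angptl6 were among the leading genes both of the Cth cluster and of the cluster led by Fgf21. Trpm1 had the widest span, from 295 to 595 CPM (median 396) in the Cth cluster to 86.9 to 156 CPM (median 114) in the cluster led by Espn, Anln and Bub1, a 3.51-fold difference of means with no overlap. Slc24a5 ranged 2.82-fold, from 999.5 ± 86.5 to 355 ± 48.9 CPM, between the same clusters. Oca2 ranged 2.64-fold, Pmel 2.14-fold, Slc45a2 2.03-fold, Tyr 1.98-fold and Mlana 1.78-fold. The 2 enzymes Tyrp1 and Dct ranged least, 1.58-fold and 1.52-fold, and no neighbouring pair of clusters differed beyond the spread for Tyrp1. In 8 of 8 tumours the highest cluster lay above the lowest for every member. An unnamed cluster led by Malat1 (2013 cells, median 1440 UMIs per cell) lay outside this ranking. Its mean was above the highest of the 10 for Dct (11435 ± 4335 CPM against 7473 ± 932), Tyrp1, Slc45a2, Slc24a5, Oca2, Tyr and Mlana. Each of these gaps was smaller than the larger SD. For Pmel and Mitf it was below, also within the larger SD, and for Trpm1 (229 ± 40.3 CPM) below by more than the larger SD.

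**Figure D1:**
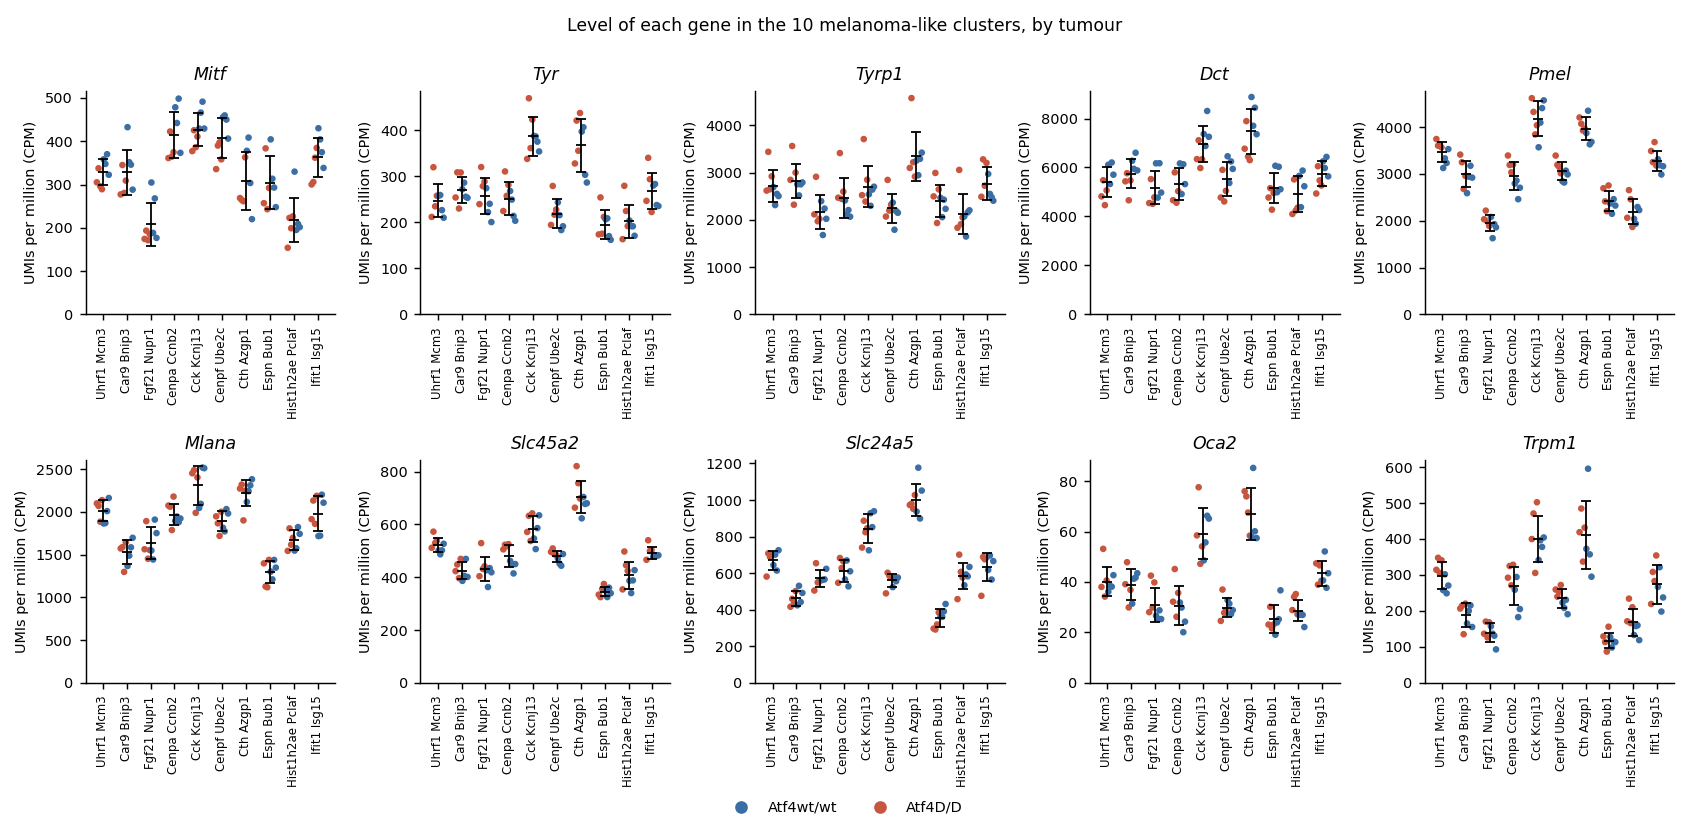
Level of each of the 10 genes (y axis, CPM, from 0) in the 10 melanoma-like clusters (x axis, named by 2 leading genes), with 1 point per tumour coloured by host genotype and black bars for mean and SD. Mitf falls from 427 CPM in the Cck Kcnj13 cluster to 208 CPM in the Fgf21 Nupr1 cluster, while Trpm1 and Slc24a5 peak in the Cth Azgp1 cluster and are lowest in the Espn Bub1 cluster.

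Likeness was described over 80 sums (10 clusters in 8 tumours, the mean of each tumour subtracted), which share tumours and libraries and so carry no p. Mitf was least like the other members: its median Pearson correlation with them was 0.36, from 0.18 with Slc24a5 to 0.71 with Pmel. The medians of the other 9 lay between 0.66 (Tyrp1) and 0.82 (Slc45a2). The pairs most alike were Slc45a2 with Slc24a5 (r = 0.92), Trpm1 with Mlana (0.91) and Slc24a5 with Mlana (0.91). Among 5820 genes compared, those most like Mitf were Ctnnb1, which encodes beta-catenin (r = 0.86), Mknk2, a kinase of a translation factor (0.85), and 5031439G07Rik (0.84). For Tyr they were Vamp8 (0.92), Glmp (0.92) and Cort (0.91), for Pmel Bace2 (0.96), a protease known to cut PMEL, Cyb5a and Mgll, and for Oca2 Hexa (0.87), Tyr and Dct. For Mlana they were Ldhb (0.93), Ctsz and Uap1l1, for Trpm1 Gsta2 (0.92), Gm3776, a close relative of Gsta2 with which reads may be shared, and Mlana, and for Tyrp1 Igsf8 (0.83), Dmxl2 and Dct. Dct was most like Tyr, Vamp8 and Oca2, Slc45a2 most like Slc24a5, Trpm1 and Ldhb, and Slc24a5 most like Slc45a2, Mlana and Atpif1.

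Tests of state used cells ranked by genes other than the 10. Melanoma-like cells with at least 4000 UMIs (22839 cells, 859 left out) were thinned to 4000 UMIs each. Within a tumour, the cells with the most UMIs of a gene list were compared with an equal number of cells with the fewest, 7610 cells in each group over the 8 tumours. Full counts were summed per tumour and group, and the 8 pairs were tested with the edgeR quasi-likelihood test, paired by tumour and adjusted over all genes by Benjamini-Hochberg. Many genes change between such groups, so each count of members is set beside the share of all tested genes that were called.

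Along hypoxia, the channel Trpm1 and the exchanger Slc24a5 fell most, whereas none of the enzymes Tyr, Tyrp1 and Dct was called lower. Of the 10 members, 6 were lower in the hypoxic group (29.2% of 11883 genes were) and 1 was higher (29.3% of genes were). Trpm1 was 214 to 354 CPM (median 298) in the group with the least hypoxia RNA and 135 to 253 CPM (median 176) in the group with the most, lower in 8 of 8 tumours, although the ranges overlapped. Its log2 difference was -0.67 ± 0.08 (SE, 8 pairs, edgeR adjusted p = 8.52e-06). Slc24a5 went from 599.6 to 740.1 CPM (median 690.3) to 417 to 633 CPM (median 488), with a log2 difference of -0.43 ± 0.05 (edgeR adjusted p = 2.81e-06), in 8 of 8 tumours. Mlana (-0.26 ± 0.04), Pmel (-0.26 ± 0.04), Mitf (-0.21 ± 0.05) and Slc45a2 (-0.18 ± 0.04) fell by less on the log2 scale. Mitf was lower in 7 of 8 tumours. Dct was higher by 0.06 ± 0.02 (edgeR adjusted p = 0.0193), in 8 of 8 tumours, and this call was lost without Atf4D/D replicate 1 (adjusted p = 0.0513) and without Atf4D/D replicate 4 (0.0564). Tyr differed by 0.06 ± 0.03, Tyrp1 by 0.02 ± 0.04 and Oca2 by -0.11 ± 0.05, and none of the 3 was called. Without 1 tumour, Oca2 (without Atf4wt/wt replicate 4, adjusted p = 0.0126) and Tyrp1 (without Atf4D/D replicate 3, 0.0454) came to pass, as did Oca2 with narrower groups that held fewer cells at each end of the ranking (-0.17, 0.0227). The hypoxic group had a median of 9684 UMIs per cell against 11156 in the other.

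Along the cell cycle, Mitf was higher in the group with the most proliferation RNA, and 7 members, led by Tyr and Oca2, were lower (35.5% and 38.1% of 11983 genes were higher and lower). Mitf was 245 to 389 CPM (median 297) in the least and 312 to 410.0 CPM (median 322) in the most proliferative group, higher in 8 of 8 tumours, with a log2 difference of 0.19 ± 0.03 (edgeR adjusted p = 5.49e-06). Clusters led by proliferation genes were not alike in Mitf. It was 414 ± 54.2 CPM (Cenpa and Ccnb2), 407 ± 46.0 (Cenpf and Ube2c), 328 ± 29.9 (Uhrf1 and Mcm3) and 217 ± 50.6 (Hist1h2ae and Pclaf). Tyr fell from 252 to 383 CPM (median 305) to 186 to 272 CPM (median 216), by 0.51 ± 0.03 on the log2 scale (edgeR adjusted p = 1.33e-15). Oca2 fell from 37.3 to 62.6 CPM (median 44.0) to 26.3 to 38.6 CPM (median 30.8), by 0.53 ± 0.05 (edgeR adjusted p = 3.86e-11). Both were lower in 8 of 8 tumours, with ranges that overlapped. Slc24a5 (-0.24 ± 0.03), Dct (-0.23 ± 0.03), Tyrp1 (-0.18 ± 0.03) and Slc45a2 (-0.13 ± 0.03) were lower in 8 of 8 tumours as well. The call of Trpm1 (-0.11 ± 0.05, edgeR adjusted p = 0.0456, lower in 5 of 8 tumours) rested on single tumours: it was lost without Atf4wt/wt replicate 1, 2, 3 or 4 or without Atf4D/D replicate 2, where the adjusted p was 0.0581, 0.11, 0.187, 0.0658 and 0.24. Pmel (-0.04 ± 0.03) and Mlana (-0.03 ± 0.03, higher in 5 of 8 tumours) were not called. Pmel was called lower when thinned counts were summed (-0.12, edgeR adjusted p = 0.00044) and with narrower groups (-0.07, 0.0329). The proliferative group held more RNA per cell, a median of 13105 UMIs against 8915.

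Along the integrated stress and unfolded protein genes, Trpm1, Mitf and Pmel fell together. Of the members 7 were lower and 1 higher, where 28% and 28.5% of 11923 genes were. Mitf was 327 to 450.5 CPM (median 370) in the least stressed and 198 to 376 CPM (median 248.6) in the most stressed group, lower in 8 of 8 tumours although the ranges overlapped, by 0.54 ± 0.06 on the log2 scale (edgeR adjusted p = 1.95e-07). Trpm1 fell from 253 to 328 CPM (median 279) to 156 to 258 CPM (median 189), by 0.56 ± 0.04 (edgeR adjusted p = 3.17e-09). Pmel was 3025 to 3768 CPM in the least and 2303 to 2941 CPM in the most stressed group, without overlap, and its log2 difference was -0.37 ± 0.03 (edgeR adjusted p = 2.03e-08). Oca2 (-0.27 ± 0.05), Tyrp1 (-0.17 ± 0.04) and Mlana (-0.16 ± 0.03) followed. Oca2 lost its call when thinned counts were summed (-0.21, edgeR adjusted p = 0.0523). Dct was higher by 0.06 ± 0.02 (edgeR adjusted p = 0.0205, in 7 of 8 tumours), which was lost without Atf4D/D replicate 3 (0.105) and without a filter on low counts (0.0663). Slc45a2 was lower by 0.08 ± 0.03 (edgeR adjusted p = 0.0469), which was lost without Atf4wt/wt replicates 1, 2 or 3 or Atf4D/D replicates 1, 3 or 4 (0.0576 to 0.165), with narrower groups (0.0599) and with thinned counts (0.256). Tyr (-0.01 ± 0.03) and Slc24a5 (-0.02 ± 0.04) were not called. The median was 9898 UMIs per cell in the most and 11083 in the least stressed group.

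Along interferon-response genes the differences were small and went one way. Of the members 8 were higher and 0 lower, where 2.71% and 2.61% of 11897 genes were called. An unadjusted edgeR p under 0.05 was found for 9 of the 10 members and for 1977 of the 11897 genes. DESeq2 called 7 members. Trpm1 was 167 to 277 CPM (median 225) in the lowest and 241 to 326 CPM (median 259) in the highest group, higher in 8 of 8 tumours, by 0.25 ± 0.03 on the log2 scale (edgeR adjusted p = 3.74e-08). Oca2 rose by 0.24 ± 0.04, Pmel by 0.15 ± 0.02, Mlana by 0.12 ± 0.01, Slc24a5 by 0.10 ± 0.02, Tyrp1 by 0.10 ± 0.01 and Slc45a2 by 0.08 ± 0.02, each in 8 of 8 tumours. Tyr rose by 0.07 ± 0.02 (edgeR adjusted p = 0.0368), in 7 of 8 tumours, and lost its call without Atf4wt/wt replicate 2, 3 or 4 or Atf4D/D replicate 1, 2 or 4 (0.0513 to 0.11) and with thinned counts (0.129). Mitf (0.05 ± 0.02) and Dct (0.02 ± 0.01) were not called, and Mitf was called without Atf4wt/wt replicate 1 (0.0456). The median cell held 3 UMIs of the interferon list in the highest group and 0 in the lowest, and 10582 and 10443 UMIs in all.

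**Figure D2:**
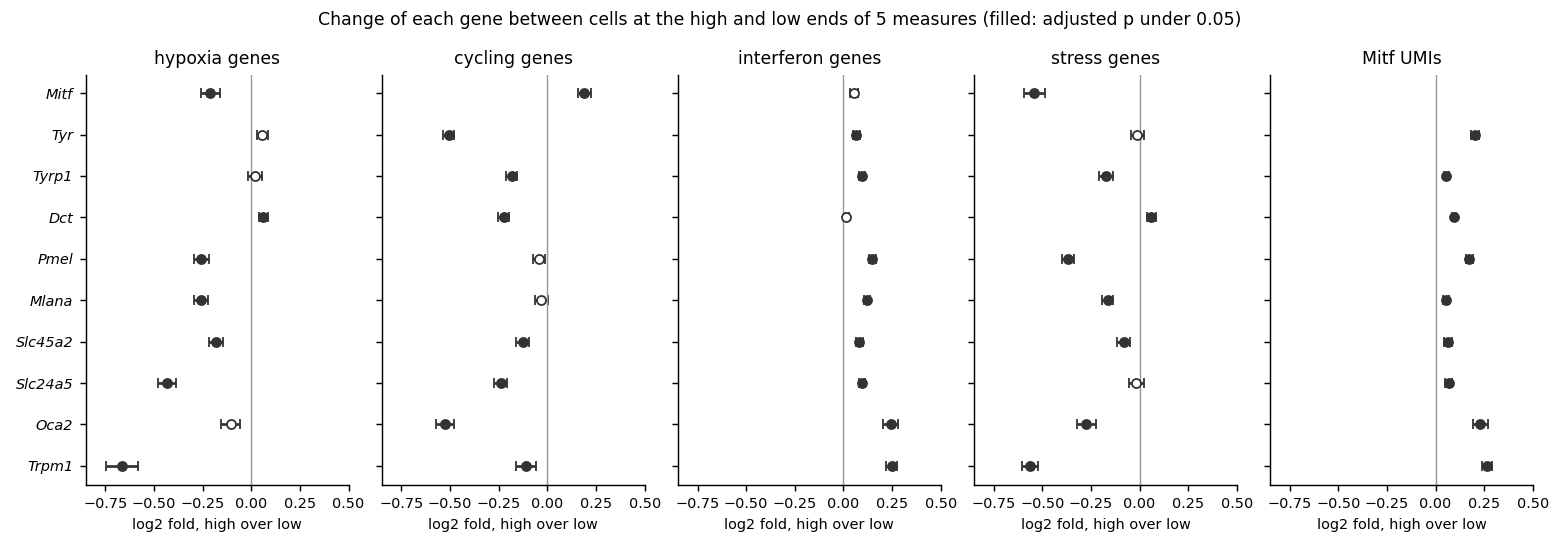
Log2 fold change (x axis, cells at the high end over cells at the low end of each measure) of the 10 genes (y axis) in 5 panels, with points for edgeR estimates over 8 tumours, bars for SE, and filled points where the adjusted p is under 0.05. Trpm1 lies lowest along hypoxia (-0.67) and stress (-0.56), Oca2 and Tyr along the cell cycle (-0.53 and -0.51), where Mitf lies to the right of 0.

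Cells with more Mitf RNA also held more RNA of the pigment genes, by small amounts. Cells with at least 2 Mitf UMIs of 4000 (8203 cells) were compared with cells with 0 (8145 cells). Mitf chose the cells and is no result here. All of the other 9 members were higher, where 14.1% of 11955 genes were called higher and 15.5% lower, and 0 members were lower. Trpm1 was 181 to 292 CPM (median 221) in cells with 0 Mitf UMIs and 233 to 337 CPM (median 261) in those with 2 or more, higher in 8 of 8 tumours, by 0.26 ± 0.03 on the log2 scale (edgeR adjusted p = 2.82e-09). Oca2 rose by 0.23 ± 0.04, Tyr by 0.20 ± 0.02, Pmel by 0.17 ± 0.02 and Dct by 0.10 ± 0.01 (8 of 8 tumours each). Oca2 lost its call when thinned counts were summed (0.17, edgeR adjusted p = 0.0661). Slc24a5 (0.07 ± 0.02), Slc45a2 (0.06 ± 0.02), Tyrp1 (0.06 ± 0.01) and Mlana (0.05 ± 0.01) moved least, in 7, 5, 7 and 6 of 8 tumours. These last 4 lost their calls when at least 3 UMIs were compared with 0 (5 members called). Slc45a2 (edgeR adjusted p = 0.0151) also lost its call without Atf4wt/wt replicate 2 or Atf4D/D replicate 1, 3 or 4 (0.0501 to 0.0702). Median depth was 10290 UMIs per cell with Mitf UMIs and 10488 without. By DESeq2 the calls of Dct with hypoxia and with stress, of Trpm1 with the cell cycle, of Tyr with interferon and of Slc45a2 with stress and with Mitf UMIs were lost (adjusted p of 0.0597 to 0.297).

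Over 4 bins of Mitf UMIs, Trpm1 was 0.85 ± 0.11 UMIs per 4000 (SD, n = 8 tumours) in cells with 0 Mitf UMIs, 1.02 ± 0.11 with 1, 1.08 ± 0.12 with 2 and 1.14 ± 0.17 with 3 or more. Tyr went from 0.99 ± 0.15 to 1.22 ± 0.13 UMIs per 4000 and Dct from 21.8 ± 2.62 to 24.4 ± 2.66. The mean ratio of the last bin to the first, taken within each tumour, was 1.35 ± 0.16 for Trpm1, 1.26 ± 0.29 for Oca2, 1.25 ± 0.13 for Tyr, 1.19 ± 0.10 for Pmel and 1.12 ± 0.04 for Dct. For Slc45a2, Tyrp1, Slc24a5 and Mlana it was 1.07 to 1.08.

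**Figure D3:**
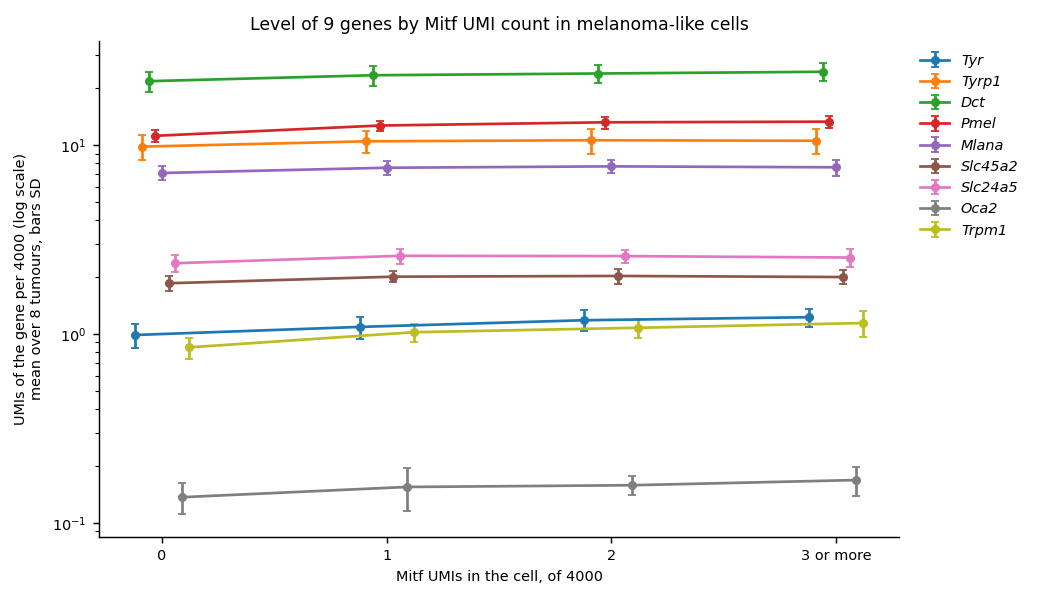
Mean UMIs of each of 9 pigment genes per 4000 UMIs (y axis, log scale, mean and SD over 8 tumours) in melanoma-like cells grouped by their number of Mitf UMIs (x axis). The lines of Trpm1, Oca2 and Tyr rise most from 0 to 3 or more Mitf UMIs, and the SD bars of neighbouring bins overlap.

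Other genes of the pathway were counted from lists. Of all genes tested, 29.3% rose and 29.2% fell with hypoxia, 35.5% and 38.1% with the cell cycle, 28.5% and 28% with stress, 2.71% and 2.61% along interferon and 14.1% and 15.5% with Mitf UMIs. These shares stand beside every list count that follows, and a list share near them is no result about the list. Sox10, Kit, Ednrb, Gpr143, Gpnmb, Rab38 and Tspan10 were also used to name the melanoma-like cells. Of 12 regulators (10 tested), among them Sox10, Pax3, Kit and Mc1r, 6 of the 10 rose and 3 fell with the cell cycle, led by the receptor Kit (log2 difference 1.34 ± 0.15) and by Tfe3, a relative of Mitf (-0.49 ± 0.06). With stress 6 fell and 1 rose, again Kit (-1.13 ± 0.14) and Tfe3 (0.46 ± 0.06). With hypoxia 4 rose and 3 fell, Tfap2a most (0.61 ± 0.07) and Kit (-0.87 ± 0.15). In cells with Mitf UMIs 8 rose, Sox10 most (0.39 ± 0.03), and Tfe3 fell (-0.17 ± 0.05). Along interferon 1 rose, Mc1r (0.11 ± 0.03), and 0 fell (2 of 10 had an unadjusted edgeR p under 0.05, as had 1977 of all 11897 genes).

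Of 30 genes of melanosome proteins and traffic, all tested, 15 fell and 8 rose with hypoxia, where Gpr143, the melanosomal receptor, fell most (-0.70 ± 0.07) and the trafficking subunit Bloc1s3 rose most (0.54 ± 0.09). With the cell cycle 16 fell (Bloc1s3 -0.86 ± 0.09) and 6 rose (Dtnbp1 0.57 ± 0.03). With stress 13 fell (Mreg, a melanosome transport protein, -0.92 ± 0.08) and 5 rose (Bloc1s3 0.43 ± 0.09). With Mitf UMIs 14 rose (Mlph, which links melanosomes to a myosin, 0.29 ± 0.03) and 3 fell (Rabggta -0.17 ± 0.06), and with interferon 6 rose (Sytl2 0.17 ± 0.04) and 0 fell. Of 9 genes of low-MITF states, 6 were tested: with hypoxia 2 rose (Jun 0.87 ± 0.09) and 1 fell (Nrp1 -0.85 ± 0.08), with stress 1 rose (Jun 0.72 ± 0.04) and 1 fell (Nrp1 -0.72 ± 0.08), with the cell cycle 1 rose (Nrp1 0.65 ± 0.07) and 3 fell (Tead4 -0.76 ± 0.10), with interferon 1 rose (Axl 0.93 ± 0.17), and with Mitf UMIs 2 rose (Sox9 0.25 ± 0.08) and 1 fell (Jun -0.26 ± 0.02). Over all genes tested, the median log2 difference lay between -0.02 and 0.01 in the 5 comparisons, against -0.20 (hypoxia), -0.16 (cell cycle), -0.17 (stress), 0.10 (interferon) and 0.10 (Mitf UMIs) over the members.

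Host genotype was compared in melanoma-like cells, which kept Atf4 in both hosts. Counts were summed per tumour, and levels are CPM after TMM scaling. Of the 10 members 0 were called by the edgeR quasi-likelihood test (0.0319% of 12553 genes were, 4 genes) and 0 by DESeq2. An unadjusted edgeR p under 0.05 was found for 3 members and for 1423 of the 12553 genes. Mitf was 404, 368, 376 and 294 CPM in Atf4wt/wt and 302, 322, 295 and 311 CPM in Atf4D/D hosts. The last Atf4wt/wt tumour lay below all Atf4D/D tumours and the other 3 above them (log2 difference -0.23 ± 0.09 SE, edgeR adjusted p = 0.39). Dct was 6331, 5606, 6826 and 5791 CPM against 5129, 5972, 4555 and 5115 CPM, overlapping through 1 Atf4D/D tumour (-0.24 ± 0.09, edgeR adjusted p = 0.39). Trpm1 was 232, 249.5, 229.9 and 208 CPM against 259.9, 304, 228 and 284 CPM, with 1 Atf4D/D tumour in the range of the other group (0.23 ± 0.09, edgeR adjusted p = 0.396). The other 7 members differed by -0.07 to 0.15 on the log2 scale, with SE of 0.07 to 0.12 and edgeR adjusted p of 0.556 to 0.943. For all 10 members the groups overlapped. Overlap was not counted over all genes, so this is no result about the members. A p above the threshold does not show that the levels are alike.

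**Figure D4:**
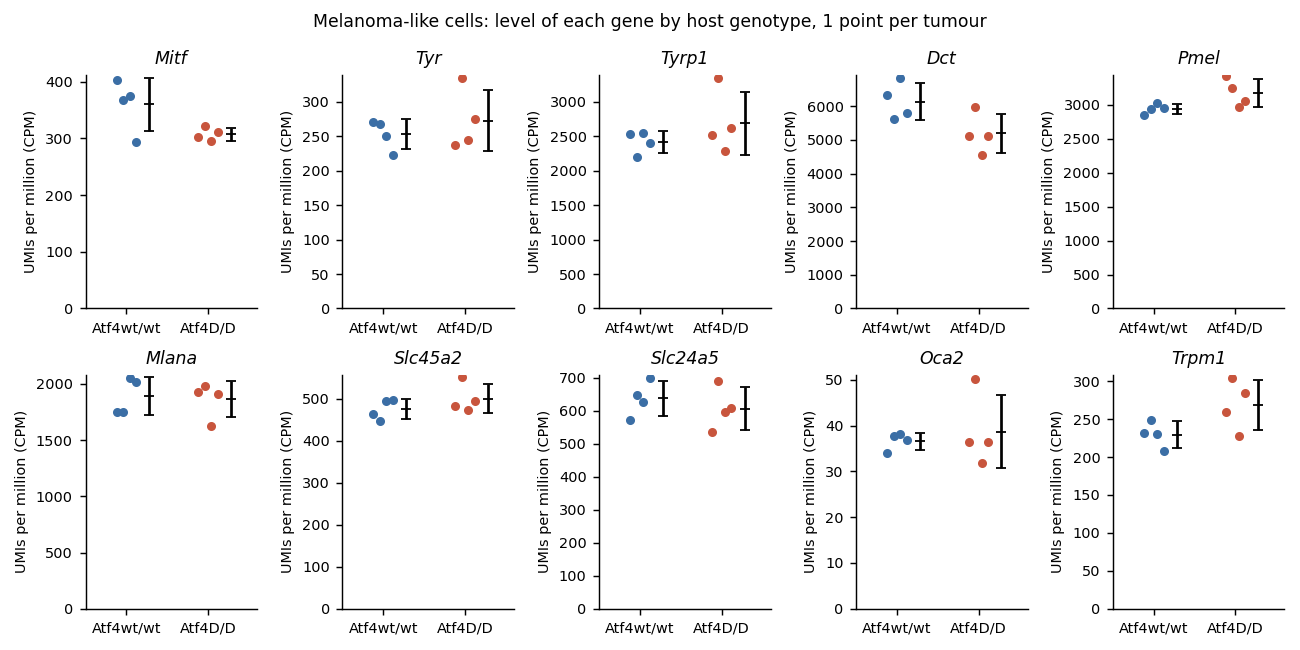
Level of each gene in melanoma-like cells (y axis, TMM-scaled CPM, from 0) by host genotype, with 1 point per tumour and black bars for mean and SD of 4. Mitf and Dct are on average lower and Trpm1 higher in Atf4D/D hosts, with overlapping points for every gene.

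The hypoxia response was also compared between genotypes through an interaction term. Of the 10 members 0 were called (edgeR, 0% of 11883 genes called, 761 with an unadjusted p under 0.05, of which 0 were members, and 0 genes by DESeq2). The estimate furthest from 0 was that of Trpm1 (-0.27 ± 0.15, Atf4D/D minus Atf4wt/wt, edgeR adjusted p = 0.776). It was called without a filter on low counts (adjusted p = 0.0455).

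In host cells, which do not make pigment, RNA of the members stood at 19.7% ± 7.997 (CAF-like) and 20.6% ± 13.3 (immune) of the level in melanoma-like cells of the same tumour (SD, n = 8). Summed over the 10 genes it was 31.5%, 21.9%, 11.7% and 21.6% of the melanoma-like level in CAF-like cells of Atf4wt/wt hosts and 27.2%, 18.9%, 6.41% and 18.6% in Atf4D/D hosts. In immune cells it was 45.5%, 10.2%, 28.1% and 27.2% against 8.01%, 25.1%, 7.55% and 12.8%. The groups overlapped in both classes. The mean difference, Atf4D/D minus Atf4wt/wt, was -3.91 percentage points in CAF-like cells (exact permutation p = 0.543, adjusted 0.543) and -14.4 in immune cells (exact permutation p = 0.114, adjusted 0.229), two-sided over 70 assignments, where 0.0286 is the smallest p possible. Without the cells of high share described next, the difference was 0.184 percentage points in CAF-like cells and -1.59 in immune cells (exact permutation p = 0.314, adjusted 0.629). Those cells were left out by the same summed share that is compared here. The values without them therefore carry no weight on the genotype difference. In an unnamed cluster of 140 cells led by Igkc and Nkg7, with a median of 868 UMIs per cell, the share was 11.2% ± 1.85 (SD, n = 6 tumours). In the CAF-like cells edgeR called 0 of 4952 genes between the genotypes (0%, 296 with an unadjusted p under 0.05, and 3 by DESeq2), and 0 of the 9 members tested, none of which had an unadjusted p under 0.05. Their log2 differences ran from -0.39 ± 0.35 (Dct) to 0.25 ± 0.37 (Trpm1). Oca2 was too low to test there.

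A few cells held much of it. In 70 of 765 CAF-like cells and 36 of 758 immune cells the members' share of UMIs exceeded 50% of that in melanoma-like cells. Those cells had medians of 12761 and 8436 UMIs against 4280 and 1417 in the rest. Doublets were not removed, and the part of such cells in these values was not tested. Without them the summed share was 4.59% to 8.94% of the melanoma-like level per tumour in CAF-like cells and 6.10% to 12.8% in immune cells. No member UMI was seen in 56 CAF-like and 93 immune cells. The 10 melanoma markers outside the list of members summed to 537 to 1387 CPM in CAF-like and 449.7 to 1961 CPM in immune cells against 3042 to 4106 CPM in melanoma-like cells, with none at 0. These markers include Gpnmb, Kit and Ednrb, and whether host cells make some of them was not tested.

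Mitf was 31.8%, 50.4%, 18.8% and 21.1% of its melanoma-like level in CAF-like cells of Atf4wt/wt hosts and 40.3%, 34.6%, 25.1% and 28.3% in Atf4D/D hosts, on average 31.3% ± 10.4 (SD, n = 8, 408 UMIs). The means of the other 9 lay between 18.5% ± 8.31 (Pmel) and 23.1% ± 10.4 (Tyr). In each tumour a member's share was set against that of the other 9 together, with 0.5 UMI added to each host sum. For Mitf in CAF-like cells the mean log2 ratio was 0.80 ± 0.71 (SD, n = 8), above 0 in 8 of 8 tumours, but the lowest tumour lay at 0.000485. Pmel lay below 0 in 8 of 8 tumours in CAF-like (-0.18 ± 0.28) and in immune cells (-0.48 ± 0.35). For all 3 the exact sign-flip permutation p was 0.00781, the smallest that 8 tumours allow, and 0.0521 after adjustment over 20 tests, so that 0 were called at 0.05 while 3 had an unadjusted p under 0.05. In immune cells Mitf was at 26.9% ± 15.6 (log2 ratio 0.47 ± 0.71, exact permutation p = 0.117). Its CAF-like sum in 1 Atf4D/D tumour (replicate 3, 16 cells) was 4 UMIs.

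Without the 70 and 36 cells of high share, Mitf stood further from the others. It was at 15.8% ± 5.81 of its melanoma-like level in CAF-like cells (163 UMIs) where the other 9 were at 4.74% (Pmel) to 8.75% (Oca2, 10 UMIs), with a log2 ratio of 1.42 ± 0.54, above 0 in 8 of 8 tumours (exact permutation p = 0.00781, adjusted 0.0391). Dct (-0.30 ± 0.23) and Pmel (-0.44 ± 0.25) were below 0 in 8 of 8 tumours with the same p values. In immune cells Mitf was at 15.3% ± 6.42 (76 UMIs, log2 ratio 0.88 ± 0.80, above 0 in 6 of 8, adjusted exact permutation p = 0.0893), and Pmel was again below (-0.62 ± 0.48, adjusted exact permutation p = 0.0391). The limit acts on the summed share of the same members, of which Dct and Pmel make up 57.6% and Mitf 2.24%. Cells were thus left out by the same UMIs that the ratios compare, and these p values cannot serve as support for a difference between members. With these cells left out, the mean CAF-like level went from 31.3% to 15.8% for Mitf, 19.4% to 5.39% for Dct and 18.5% to 4.74% for Pmel. It went from 23.1% to 7.20% for Tyr and from 21.8% to 6.81% for Trpm1, which make up 1.76% and 1.65% of the members' UMIs. The part of the limit in these ratios was not tested.

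**Figure D5:**
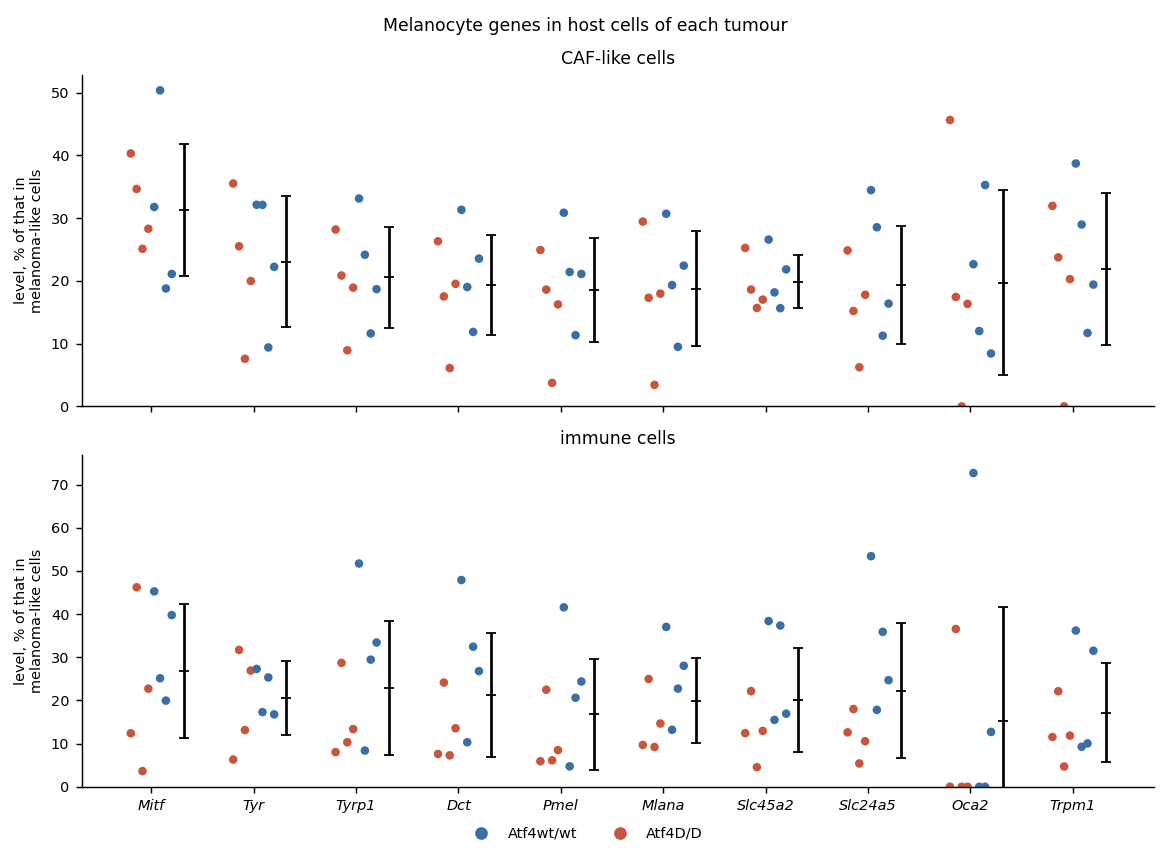
Level of each gene in CAF-like (top) and immune (bottom) cells as a percentage of its level in melanoma-like cells of the same tumour (y axis, from 0), with 1 point per tumour and black bars for mean and SD. In CAF-like cells Mitf has the highest mean (31.3%), and the tumours spread more than the genes.

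Thinned to 500 UMIs, 21.8% of CAF-like cells (95% exact binomial interval 19.0 to 24.9) and 24.0% of immune cells (21.01 to 27.2) held a Dct UMI, against 90.6% of melanoma-like cells. Unthinned, the shares were 62.0%, 53.8% and 99.9%. For Mitf they were 3.92% (2.66 to 5.55), 2.90% (1.83 to 4.36) and 15.3% thinned, and 24.7%, 12.3% and 84.5% unthinned. The intervals cover counting error only. The median depths were 4520 UMIs in CAF-like, 1470 in immune and 10309 in melanoma-like cells.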

How the data were processed

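Gene by barcode tables of 8 tumours held UMI counts that the authors deposited, made with Cell Ranger 3.1.0 on GRCm38 per the labels, with no normalization. Cells with 200 to 5000 genes and at most 7.5% mitochondrial UMIs, and genes seen in 3 or more cells, were kept. Clusters (Seurat 5.3.0, 2000 variable genes without the members, 20 components) were named by marker lists. Counts were summed per tumour and class and tested with the edgeR 4.0.16 quasi-likelihood test (TMM, low genes filtered), adjusted by Benjamini-Hochberg over all genes at 0.05. DESeq2 1.42.0 was an alternative. State groups were taken after thinning to 4000 UMIs per cell, host detection after thinning to 500. Member shares in host cells were compared by exact permutation. The unpaired and paired edgeR fits and the thinning were tested on simulated data. The permutation, interaction and DESeq2 tests were not. Doublets were not removed, and the labels do not say whether tumours share a litter or day. Same-numbered tumours of the 2 genotypes did not deviate together (correlations -0.061 to -0.401), so numbers were not used as pairs. The members and gene lists were chosen with earlier results of these data known. Named were all members, the strongest riser and faller of each list, and the 3 genes most like each member. No 2 replicates agreed within sampling noise (chi-square per gene 11.5 to 45.6 over 12 pairs).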

Additional observations from a re-analysis of the deposited data

How the results depend on the processing

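The number of genes called between the genotypes in melanoma-like cells was 117 with DESeq2, 46 without a filter on low counts, 0 at a mitochondrial limit of 15% and 0 with the replicate block, where 0 members were called as well. In CAF-like cells it was 3 with DESeq2, 115 without the filter and 2 with the members kept for clustering. DESeq2 called 282 genes along interferon and 2087 with Mitf UMIs, where summed thinned counts gave 2213. At least 3 against 0 Mitf UMIs left 5 members called. Without the filter the interaction called 1 member and 117 genes. Without host cells of high member share, the genotype difference was 0.184 (CAF-like) and -1.59 points (immune), and 3 CAF-like and 1 immune ratios were called. Those differences and ratios compare the same UMIs by which the cells were left out, so neither they nor the calls are support. The cause was not tested.

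Leaving out 1 tumour, the genotype gave 0 to 21 genes in melanoma-like and 0 to 3 in CAF-like cells, the interaction 0 to 1, and the stray difference -7.24 to -0.12 points (CAF-like) and -20.2 to -8.47 (immune). Members called were 6 to 8 (hypoxia), 7 to 8 (cell cycle), 7 to 9 (interferon), 6 to 8 (stress) and 8 to 9 (Mitf UMIs). Genes called were 6336 to 7247, 8435 to 8715, 510 to 607, 6300 to 6653 and 3039 to 3617.

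Reversals were all of uncalled log2 values. In CAF-like genotype differences they were Mitf 0.027 and Mlana 0.031 with host sex, Mlana 0.048 with members kept and Slc45a2 -0.017 at 15%. Slc24a5 along stress was 0.013 with narrower groups and 0.028 thinned. Among host ratios, Slc24a5 (CAF-like) was 0.44 without high-share cells and 0.031 with 1 UMI added, Dct (immune) -0.22 without high-share cells and Trpm1 (immune) 0.091 with 1 UMI added. Without 1 tumour, sign changed for genotype in melanoma-like cells in Mlana (-0.061 to 0.037), Tyr (-0.0014 to 0.17) and Oca2 (-0.067 to 0.17), and in CAF-like cells in Mitf (-0.21 to 0.28), Pmel (-0.40 to 0.15), Mlana (-0.34 to 0.23), Tyr (-0.020 to 0.54), Tyrp1 (-0.066 to 0.47) and Slc45a2 (-0.061 to 0.23). It changed for Mlana along the cell cycle (-0.053 to 0.00021), Slc24a5 (-0.043 to 0.024) and Tyr (-0.043 to 0.012) along stress, and the interactions of Mitf (-0.072 to 0.086), Tyr (-0.0036 to 0.056), Dct (-0.0023 to 0.033) and Tyrp1 (-0.11 to 0.019). Ratios changed sign for Oca2 (-0.14 to 0.36), Slc45a2 (-0.041 to 0.17), Dct (-0.0024 to 0.067) and Trpm1 (-0.18 to 0.11) in immune cells and Dct (-0.073 to 0.0023), Slc24a5 (-0.074 to 0.042) and Slc45a2 (-0.031 to 0.22) in CAF-like cells.

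At the 15% limit no cluster met the rule for immune cells, so no immune value was had there. Trpm1, Oca2 and Tyr rest on few UMIs per host sum.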

Other observations

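Over all barcodes with 200 to 5000 genes, binned by mitochondrial share of UMIs before any filter on that share, the members did not share an order. Trpm1 was 244 ± 33.1 CPM (SD, n = 8 tumours) at 2 to 7.5%, 282 ± 62.7 CPM at 7.5 to 15% and 174 ± 23.8 CPM over 15%. Tyr was 258 ± 36.1, 328 ± 72.2 and 368 ± 51.6 CPM in the same bins, and Mlana 1843 ± 120, 2026 ± 208 and 1595 ± 188 CPM. At 2% or less, Mitf was at 259 ± 66.6 CPM and Slc24a5 at 782 ± 204 CPM, against 334 ± 40.6 and 601 ± 51.9 CPM at 2 to 7.5%. The bins held 3431, 24980, 9590 and 3252 barcodes in order of their share. They mix cell types, and no test was run.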
